A study of Homo sapiens with 4 samples.

Results

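The 10 genes described here encode transcription factors of the ETS family: *FLI1*, *ERG* and *FEV* of the ERG subfamily, *ETS1* and *ETS2* of the ETS subfamily, *ETV1*, *ETV4* and *ETV5* of the PEA3 subfamily, and *ETV6* and *ETV7*, which belong to the TEL subfamily. They were chosen by gene symbol, from 28 human ETS genes in all and 20033 protein-coding genes of GENCODE 44. Every peak of Flag-tagged FLI1 that lay within 3 kb of an annotated transcription start site (TSS), in the gene body or within 50 kb of the gene was taken. This gave 38 of 30819 peaks in the control list and 54 of 39654 peaks in the IFN-γ list, over 2057 kb of the human genome (GRCh38).

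The samples were HK1 cells, an established line of nasopharyngeal carcinoma, and each carried overexpressed Flag-tagged FLI1. The ChIP was made against the Flag tag, and thus reads the introduced protein and not native FLI1. One culture received the control treatment (PBS in the methods) and the other IFN-γ for 24 h, with 1 ChIP library per condition and an input library for each that is not analysed here. Peak lists hold no expression values, so the HK1 label could not be checked against marker genes and the expression of the 10 genes is not measured here.

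ETS factors share a winged helix-turn-helix DNA-binding domain that reads a GGAA core with flanking bases that differ between subfamilies. Some of them, FLI1 and ERG included, are known to regulate their own genes and those of relatives. The genes *FLI1*, *ERG*, *ETV1*, *ETV4* and *FEV* are known as fusion partners of *EWSR1* in Ewing sarcoma, in which the fusion proteins also bind repeats of GGAA. ETV6 and ETV7 carry a SAM domain through which they form polymers, and ETV6 acts mainly as a repressor.

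Below are the DNA windows at the sites on which the results turn, read from GRCh38 5′ to 3′. The first 5 were centred on the summit of the IFN-γ peak. Capitals mark CMGGAAGT (M is A or C), the octamer of the FLI1 motif, and TGANTCA, the heptamer of AP-1 factors, where the window held an octamer, and otherwise the GGAA core on either strand. The *ERG* window lies upstream of the gene, the *FLI1* window in intron 1, the *ETV6* promoter window before the first exon, and the other *ETV6* windows in introns 1 and 2.
ERG upstream, chr21:38679717-38679867, minus strand: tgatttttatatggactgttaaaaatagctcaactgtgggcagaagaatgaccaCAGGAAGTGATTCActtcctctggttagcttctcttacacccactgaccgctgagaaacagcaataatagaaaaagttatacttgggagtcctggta
FLI1 intron 1, chr11:128709515-128709665, plus strand: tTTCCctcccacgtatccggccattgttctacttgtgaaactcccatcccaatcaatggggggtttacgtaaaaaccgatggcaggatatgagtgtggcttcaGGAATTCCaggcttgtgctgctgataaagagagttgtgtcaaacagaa
ETV6 promoter, chr12:11648900-11649050, plus strand: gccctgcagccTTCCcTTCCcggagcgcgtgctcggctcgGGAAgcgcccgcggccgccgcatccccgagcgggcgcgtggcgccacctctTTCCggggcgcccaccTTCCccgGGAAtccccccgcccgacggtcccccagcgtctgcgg
ETV6 intron 1, chr12:11731591-11731741, plus strand: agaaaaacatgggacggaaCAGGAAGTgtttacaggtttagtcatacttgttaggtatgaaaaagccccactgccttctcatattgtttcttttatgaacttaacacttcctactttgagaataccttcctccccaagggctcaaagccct
ETV6 intron 2, chr12:11798985-11799135, plus strand: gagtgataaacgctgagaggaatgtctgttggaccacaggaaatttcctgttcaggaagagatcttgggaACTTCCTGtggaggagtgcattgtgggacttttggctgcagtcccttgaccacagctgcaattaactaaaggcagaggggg

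The longest runs of GGAA units within 100 bp of a summit, in capitals with 24 bases either side, are shown next. A run of this kind is the other sequence that fusions of FLI1 are known to bind. The *ETS2* run lies in intron 5, the upstream *ETV7* run inside the neighbouring gene *PXT1*, and the other runs outside coding genes.
ETS2 intron 5, chr21:38815914-38816033, plus strand: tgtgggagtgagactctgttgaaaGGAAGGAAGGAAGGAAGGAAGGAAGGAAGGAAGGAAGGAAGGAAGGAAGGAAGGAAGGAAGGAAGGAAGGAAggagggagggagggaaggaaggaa
ETV5 downstream, chr3:186015047-186015134, minus strand: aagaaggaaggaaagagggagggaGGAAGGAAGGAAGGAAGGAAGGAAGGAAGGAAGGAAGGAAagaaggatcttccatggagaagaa
ETV7 upstream, chr6:36409801-36409884, plus strand: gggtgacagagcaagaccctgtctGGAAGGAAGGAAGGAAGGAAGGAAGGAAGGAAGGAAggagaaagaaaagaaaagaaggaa
ETV7 downstream, chr6:36338409-36338492, plus strand: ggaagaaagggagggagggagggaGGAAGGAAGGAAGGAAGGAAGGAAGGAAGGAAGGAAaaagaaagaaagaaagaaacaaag

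Each deposited peak carries a fold enrichment, which is the fragment pileup at the summit plus 1 over the local background plus 1, and a −log10 p. From these the whole number of fragments at each summit was recovered. Summit pileups had a median of 16 fragments in control cells and 22 after IFN-γ. The IFN-γ library was 1.46 times as deep as the control library by the ratio of the lowest backgrounds, and pileups were scaled by this ratio. Intervals are exact (Clopper-Pearson) at a confidence level of 95% and cover counting error only. With 1 library per condition, no effect of IFN-γ could be tested, and a site missing from 1 list did not reach the cutoff there and may still have been bound.

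Flag-FLI1 peaks lay at all 10 genes in both libraries, where 85.8% of all protein-coding genes in control cells and 88.8% after IFN-γ had a peak in the gene or within 50 kb. At the promoters, 7 of the 10 genes had a peak in each library: *ETS1*, *ETS2*, *ETV1*, *ETV4*, *ETV5*, *ETV6* and *ETV7*. All 3 genes of the ERG subfamily, *FLI1*, *ERG* and *FEV*, had none in either library. Across protein-coding genes 61.9% had a promoter peak in the control list, 59.7% in the IFN-γ list and 65.6% in at least 1 of them, so 7 of 10 is close to the background. Of the 18 other ETS genes, 13 had a promoter peak in control cells and 11 after IFN-γ. The density of peaks over the 10 loci was 1.85 per 100 kb in control cells and 2.63 after IFN-γ, against 0.998 and 1.28 over the genome. The genome values include sequence away from genes, and the density over the loci of all protein-coding genes was not computed.

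The strongest promoter peak by −log10 p was that of *ETV6* in both libraries, with a fold enrichment of 35.4 in control cells and 37.1 after IFN-γ. *ETS2*, whose product is a target of Ras and MAP kinase signalling, followed in the IFN-γ list with 22.1, and had 17.0 in the control list. *ETV4*, a PEA3 factor of epithelial branching, had 17.6 in control cells and 11.0 after IFN-γ. The promoters of *ETV5*, *ETV7* and *ETV1* had fold enrichments between 4.31 and 8.98, with the strongest *ETV1* peak at the 5′ end of the gene in control cells and at an alternative TSS in intron 11 after IFN-γ. The *ETS1* promoter peaks, with 9.25 and 4.06, lay at separate alternative TSSs and did not overlap each other.

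Of the 38 control peaks, 30 (78.9%, interval 62.7% to 90.4%) had an IFN-γ peak over at least 1 of their bases, where 77.5% of all control peaks did. Of the 54 IFN-γ peaks, 29 (53.7%, 39.6% to 67.4%) overlapped a control peak, where 61.0% of all IFN-γ peaks did. Both overall shares lie inside the intervals of the 10 genes. By place, the control peaks comprised 13 at promoters, 11 elsewhere in gene bodies, 4 upstream and 10 downstream. The IFN-γ peaks comprised 11 at promoters, 21 in gene bodies, 11 upstream and 11 downstream. Of the summits outside the 10 genes, 3 of 14 in the control list and 8 of 22 in the other fell within another coding gene. IFN-γ peaks without a control counterpart were most numerous at *ETV7* (6), *ETS1* (5) and *ERG* (4), whose loci spanned 134, 229 and 382 kb.

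The 30 control peaks and 29 IFN-γ peaks that overlapped gave 29 one-to-one pairs. The ratio of IFN-γ to control pileup after scaling had a median of 1.29 over these pairs (lowest 0.458, highest 2.52), against a median of 1.01 over all 23495 pairs. How far place accounts for that distance was not tested. The median over all pairs was 0.883 at promoters and 1.24 away from them. At the 10 loci it was 1.17 over the 12 pairs at a promoter of any gene and 1.32 over the 17 others. The fold enrichment was higher in the IFN-γ list in 23 of 29 pairs, where it was higher in 49.5% of all pairs, and in 15 of the 17 distal pairs, where it was higher in 67.9% of all distal pairs. A pair was called higher or lower where its interval left out the overall median. Of the 29 pairs 6 were higher, where 11.7% of all pairs were, and 2 were lower, where 8.35% were. Against the median of the pairs of their own kind of site, 6 were higher and 1 was lower, and the matching shares over all pairs were not computed. Those 6 included the *ETS2* promoter and left out the site downstream of *ETV1*. The 6 pairs higher than the overall median lay at *FLI1* and *ERG*, at 3 sites of *ETV1*, and at the *DHX8* promoter beside *ETV4*, and both pairs lower than it lay around *FEV*.

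*FLI1* itself (ENSG00000151702, chr11:128686535-128813267, plus strand) had 2 peaks in control cells and 1 after IFN-γ. The shared site lay in intron 1, 15.5 kb from the MANE TSS and closest to a TSS of *SENCR*, a non-coding RNA gene, that lies within *FLI1*. Its fold enrichment was 11.7 in the control list (128709424 to 128709690) and 20.4 in the IFN-γ list (128709390 to 128709770). The pileup was 23 fragments in control cells and 70 after IFN-γ, a scaled ratio of 2.09 (1.29 to 3.51), at percentile 93.7 of all pairs. The window had 4 GGAA cores within 100 bp of either summit and 0 octamers. The further control peak lay 136 kb from the MANE TSS, beyond the 3′ end, with a fold enrichment of 4.38 from 8 fragments. No peak overlapped a coding exon of *FLI1* in either library (0 in each), although the cells carried an introduced *FLI1*. *FLI1* and *ETS1* are neighbours on chromosome 11, and the 98.98 kb between them held 0 peaks in either list.

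*ERG* (ENSG00000157554, chr21:38380027-38661780, minus strand), which has a role in endothelial and blood stem cells, carried the strongest ERG subfamily site of the IFN-γ list, and in the control list that site ranked below a peak near *FEV*. It lay 18.04 kb upstream of the outermost annotated *ERG* TSS and 181 kb upstream of the MANE TSS. Its fold enrichment was 14.6 in the control list (38679665 to 38680293) and 39.7 in the IFN-γ list (38679540 to 38680092), the highest of the 54 IFN-γ peaks. The pileup was 29 fragments and 103 fragments, a scaled ratio of 2.44 (1.60 to 3.82), at percentile 96.9 of all pairs. The peak stood in the top 16.3% of the control list and the top 2.04% of the IFN-γ list by −log10 p.

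The summit window of this *ERG* site, printed above, held the octamer CAGGAAGT at 38679806 to 38679813 on the minus strand, 9.5 bp from the control summit and 17.5 bp from the IFN-γ summit. The octamer shared its last base with the first of the heptamer TGATTCA. A second GGAAGT on the opposite strand faced the first with 5 bases between them, an arrangement singled out after the values were seen. Facing cores with at most 12 bases between them were present at 0.159% of all control summits and 0.179% of all IFN-γ summits, and among the 10 genes only at this site in either list.

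A second shared *ERG* site lay downstream, 147 kb from the MANE TSS by the IFN-γ summit, with fold enrichments of 5.98 and 6.93 and a ratio of 1.28 (0.662 to 2.58), an interval that holds the overall median. The other 4 *ERG* peaks were in the IFN-γ list alone. Of these, 3 lay in introns 1, 2 and 9 with fold enrichments of 3.93, 4.53 and 4.73, and the strongest lay upstream at 38689839 to 38690316, with 9.02. *ERG* and *ETS2* are neighbours on chromosome 21, and the 143 kb between them held 1 control peak and 4 IFN-γ peaks.

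*FEV* (ENSG00000163497, chr2:218981087-218985184, minus strand), a regulator of serotonergic neurons, had 3 peaks in each list, none of them in the gene. The 2 shared pairs were the 2 lowest ratios of the 29. The peak 8.64 kb upstream of the *FEV* TSS in the control list lay at the promoter of *CRYBA2*, a crystallin gene. Its fold enrichment was 11.97 in control cells and 6.86 after IFN-γ, its pileup 27 fragments and 18 fragments, and its ratio 0.458 (0.238 to 0.862). The control summit of this pair lay 178 bp from the IFN-γ summit, so the pair dropped out where summits had to lie within 100 bp. The strongest control peak of the locus lay downstream, closest to *CDK5R2-AS1*, with fold enrichments of 15.4 and 6.21, pileups of 33 fragments and 25 fragments, and a ratio of 0.520 (0.297 to 0.902). The second lies near a non-coding TSS, and against the promoter median of 0.883 it was no longer lower. Neither is at a *FEV* promoter, and both windows held GGAA cores (between 3 and 6) and 0 octamers.

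*ETS1* (ENSG00000134954, chr11:128458761-128587558, minus strand), a factor of lymphoid and endothelial cells, was the 1 gene of the 10 with no shared peak. The control list held 1 peak, of 18 fragments, in intron 3 at 128521707 to 128522861, where the summit lay 180 bp from an alternative *ETS1* TSS and closest to *MIR6090*. The IFN-γ list held 5 peaks, 4 in introns away from TSSs and 1 at 128507516 to 128507824 within 2.19 kb of another alternative TSS. Their fold enrichments ran from 4.06 to 7.89, and the strongest by −log10 p, in intron 1 at 128575658 to 128575905, had 7.70 from 21 fragments. The TSS of the MANE transcript had no peak within 3 kb in either list. One IFN-γ summit, in intron 8, lay 32 bp from a run of 7 GGAA units.

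*ETS2* (ENSG00000157557, chr21:38805183-38824955, plus strand) had 5 control peaks, and each overlapped one of its 8 IFN-γ peaks. The promoter peak had its control summit 15 bp from the MANE TSS, with fold enrichments of 17.0 (38805088 to 38806814) and 22.1 (38804976 to 38806614) and pileups of 35 fragments and 72 fragments. Its ratio of 1.41 (0.931 to 2.18) held the overall median, and lay above the promoter median of 0.883. The peak in intron 5 had fold enrichments of 4.86 and 6.94, pileups of 12 fragments and 19 fragments, and a ratio of 1.09 (0.501 to 2.46). It covered the longest GGAA run at the 10 genes, 18 units over 72 bp at 38815938 to 38816009. The 3 shared downstream pairs had ratios of 1.30, 2.14 and 1.57, and each interval held the overall median. The largest of them, 47.9 kb from the TSS, rested on 9 fragments in the control library.

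*ETV1* (ENSG00000006468, chr7:13891229-13991425, minus strand), a PEA3 factor that is rearranged in prostate cancer, had 4 peaks in each list, and all 4 were shared. Of these pairs, 3 were called higher in the IFN-γ library. The peak at the 5′ end (13990584 to 13991195 and 13990503 to 13991824) had summits 202 bp and 177 bp from annotated TSSs, pileups of 11 fragments and 37 fragments, fold enrichments of 4.31 and 7.76, and a ratio of 2.31 (1.15 to 5.02). The control summit of this pair lay 555 bp from the IFN-γ summit, so the ratio sets 2 positions within 1 peak region side by side. The peak in intron 11, within 3 kb of an alternative TSS, had 9 fragments and 33 fragments, fold enrichments of 4.24 and 8.98, and the highest ratio at the 10 genes, 2.52 (1.179 to 5.98).

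The strongest *ETV1* site by −log10 p in both lists lay downstream, 139 kb from the MANE TSS. It had 40 fragments and 90 fragments, fold enrichments of 18.05 and 21.7, and a ratio of 1.55 (1.05 to 2.302), an interval that holds the distal median of 1.24. A TGAGTCA heptamer lay 7 bp from the control summit and 13 bp from the IFN-γ summit, with 0 octamers. The remaining pair, in intron 9, had 41 fragments and 56 fragments, fold enrichments of 14.7 and 13.6, and a ratio of 0.938 (0.616 to 1.44).

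*ETV4* (ENSG00000175832, chr17:43527844-43579620, minus strand) had 3 peaks in each list. Its promoter peak (43545120 to 43546373 and 43545256 to 43546453) had summits in exon 2 and overlapped the 3 kb around a TSS of a *DHX8* transcript as well. The pileups were 39 fragments and 41 fragments, the fold enrichments 17.6 and 11.0 and the ratio 0.722 (0.454 to 1.15), an interval that holds the overall median. The *ETV4* promoter and 1 *ETV5* peak of the control list were the sites without a GGAA core within 100 bp of the summit. A second promoter peak, at an alternative TSS in intron 8, was in the control list alone, with a fold enrichment of 6.38.

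The strongest peak within 50 kb of *ETV4* belonged to the promoter of *DHX8*, an RNA helicase gene of splicing, 62.5 kb from the *ETV4* MANE TSS. The fold enrichment was 30.2 in both lists, from 61 fragments and 136 fragments, and the ratio was 1.53 (1.12 to 2.11). The background was 1.06 fragments in control cells and 3.54 after IFN-γ, so this pair was called higher by pileup and showed no difference by fold enrichment. A CAGGAAGT octamer on the minus strand, at 43483865 to 43483872, had its centre 23.5 bp from the control summit and 3.5 bp from the IFN-γ summit.

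*ETV5* (ENSG00000244405, chr3:186046314-186110318, minus strand), a PEA3 factor of spermatogonial stem cells, had 3 control peaks, all at the promoter, and 4 IFN-γ peaks. The strongest control promoter peak and its partner had fold enrichments of 6.36 and 7.02, pileups of 14 fragments and 24 fragments, and a ratio of 1.177 (0.585 to 2.46). The second promoter pair had 13 fragments and 22 fragments and a ratio of 1.16 (0.560 to 2.51). The strongest peak of the locus was in the IFN-γ list alone, downstream at 186014858 to 186015287 and 94.0 kb from the MANE TSS, closest to *NMRAL2P*. It had a fold enrichment of 17.6 from 47 fragments, the highest of the 25 IFN-γ peaks without a control peak, and its summit lay 21 bp from the run of 10 GGAA units printed above. With pileup and background divided by the depth ratio, its −log10 p would be 35.4, against a lowest value of 3.52 in the control list. This rescales the IFN-γ pileup and does not read the control library at the site.

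*ETV6* (ENSG00000139083, chr12:11649674-11895377, plus strand), whose product is needed for blood cell formation in the bone marrow, held the most peaks of the 10 genes, 11 in control cells and 12 after IFN-γ. Its locus spanned 346 kb, and per 100 kb *ETS2* had more peaks in both lists (4.17 and 6.68) and *ETV7* after IFN-γ (5.98). *ETV6* had 3.18 and 3.47 peaks per 100 kb. The promoter peak (11648727 to 11649888 and 11648679 to 11650340) had summits 700 bp and 699 bp before the TSS and stood in the top 1.99% and 1.78% of the lists. The pileups were 85 fragments and 115 fragments, and the ratio was 0.929 (0.696 to 1.24). The summit windows held 7 GGAA cores and 0 octamers, as the printed sequence shows. All 9 pairs of *ETV6* had intervals that held the overall median, with ratios from 0.929 to 1.85.

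Within the introns of *ETV6*, 3 summits of the control list and 5 of the IFN-γ list had an octamer within 100 bp, each of them CAGGAAGT. The octamers at 11741673, 11799055 and 11834710 (their first bases) were at shared peaks with control fold enrichments of 6.80, 8.61 and 4.26 and IFN-γ fold enrichments of 9.39, 12.1 and 5.12. That of intron 1 at 11731610 was at a peak in the IFN-γ list alone, with a fold enrichment of 11.2 from 30 fragments. That at 11802092 was at a shared peak, within 100 bp of the IFN-γ summit but not of the control summit. Of the 5 control and 7 IFN-γ summits with an octamer at the 10 genes, the others were the upstream *ERG* site and the *DHX8* promoter.

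*ETV7* (ENSG00000010030, chr6:36354091-36387800, minus strand), a gene known to be induced by interferons, had 4 control peaks and 8 IFN-γ peaks. The promoter peak had summits 59 bp and 77 bp before the MANE TSS, pileups of 15 fragments and 22 fragments, fold enrichments of 4.78 and 7.21, and a ratio of 1.01 (0.499 to 2.09). The second shared pair, upstream and within *PXT1*, had 9 fragments and 20 fragments and a ratio of 1.53 (0.664 to 3.81). A run of 9 GGAA units lay 10 bp from its control summit, and the IFN-γ summit, 124 bp away, lay 82 bp from a separate run of 3 units in the same repeat tract. The other 6 IFN-γ peaks had no control counterpart, with fold enrichments from 3.52 to 8.28, and 4 of them lay upstream of the gene. All upstream *ETV7* summits, 2 in the control list and 5 in the other, fell within *PXT1*. The strongest by −log10 p, upstream at 36419375 to 36419639, had 7.55 from 27 fragments. The strongest *ETV7* control peak, downstream at 36350212 to 36350954 and closest to *BNIP5*, had 5.79 from 12 fragments and no IFN-γ counterpart.

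The octamer was present within 100 bp of 5 of 38 control summits (13.2%, 4.41% to 28.1%) and 7 of 54 IFN-γ summits (13.0%, 5.37% to 24.9%). The shares over all summits were 12.8% and 13.5%. Windows of equal width placed 1 kb to each side of the summits at the 10 genes held 0 octamers in either list, and over all peaks 1.41% and 1.39% of such windows held one. At least 3 GGAA units in a row were present at 2 control summits (5.26%, 0.644% to 17.7%) and 8 IFN-γ summits (14.8%, 6.62% to 27.1%). Over all summits the shares were 7.88% and 12.7%, inside the intervals of the 10 genes, as were those of the octamer. Away from promoters, 14.8% of all control summits and 19.8% of all IFN-γ summits had such a run, also inside those intervals. Of the 8 IFN-γ summits with a run, 5 belonged to peaks without a control counterpart, where 52.4% of all IFN-γ summits with a run did. The GGAA core itself was present at 36 of 38 and 53 of 54 summits. RefSeq promoter windows of GRCh38 were found for 5 of the 10 genes, *ERG*, *FEV*, *ETS2*, *ETV1* and *ETV6*, in 14 rows. Some of these windows overlap, so they are not 14 separate promoters. Of them 0 held an octamer, where 7.02% of all 35116 did.

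In the IFN-γ list 25 peaks at the 10 genes had no control counterpart, and in the control list 8 had no IFN-γ counterpart. The fold enrichment of the 25 had a median of 5.48 (3.52 to 17.6) and that of the 8 a median of 5.38 (3.89 to 9.25). By −log10 p, 16 of the 25 and 7 of the 8 stood below the median of their list. When pileup and background were divided by the depth ratio, all 25 kept a −log10 p above the lowest value of the control list, where 93.5% of all IFN-γ peaks without a control counterpart did. This reuses the IFN-γ pileups that put the peaks in the list and sets them against the weakest control peak. It therefore cannot tell whether depth accounts for their absence from the control list. By place, the 25 comprised 2 at promoters, 11 in gene bodies, 8 upstream and 4 downstream, and the 8 comprised 3, 1, 1 and 3 in the same order. Within 100 bp of their summits, 6 of the 25 held the AP-1 heptamer TGANTCA, 5 a GGAA run and 1 the octamer, where 27.5%, 17.1% and 11.2% of all IFN-γ peaks without a control counterpart did. The 50 kb limit fell between an IFN-γ peak 49.0 kb from *ETS2* with a fold enrichment of 7.31, just inside, and a control peak 51.3 kb from *ETV7* with 6.03, just outside.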

How the data were processed

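The authors trimmed paired-end reads (cutadapt 1.18), aligned them to GRCh38 (Bowtie2 2.3.4.1), removed duplicates (Picard) and called peaks in each library separately with MACS2 2.1.2. Whether the input entered the calling is not given in the sources used here. The deposited peak lists give the fold enrichment (a ratio) at the summit, −log10 p, −log10 q, a display score, which was not used, and the summit. No read totals are given. Pileup and background were solved from fold and −log10 p (largest relative error 6.21e-06), and depth was taken from the lowest backgrounds. Genes and TSSs came from GENCODE 44. Peaks were paired by their greatest overlap, and motif search covered both strands out to 100 bp from a summit.

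The 10 genes, the 18 other ETS genes and the motifs were chosen with earlier results of these data known. Named peaks were the strongest promoter peak and the strongest peak of each gene in each list, the pairs whose interval left out the overall median, and the 5 summits with the longest GGAA runs. Other peaks named were chosen after their values were seen. Pileup recovery, overlap, intervals and motif search were tested on simulated data. The tools samtools 1.23.1 and, under Python 3.11.15, pysam 0.24.0, pandas 2.3.3, scipy 1.17.1, matplotlib 3.10.9 and numpy 2.4.6 were used.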

Additional observations from a re-analysis of the deposited data

How the results depend on the processing

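No paired analysis was possible because neither condition had more than 1 library, so no replicate could be left out either. Of 76 alternative values, 65 stayed within 1.5 times a count or within the interval of a share, ratio or fold enrichment, and 11 moved. Of the 76, 27 were fold enrichments of the strongest promoter peak of single genes. All 27 stayed, mostly because the same peak was picked again. A promoter left without a peak at 1 kb, as that of *ETS1* in the IFN-γ list, was not scored among them. A change of direction was not scored. The number of peaks followed the flank: with 10 kb it was 26 and 35 in the control and IFN-γ lists (38 and 54 with 50 kb), and with 100 kb it was 64 and 88. Where a shared peak needed summits within 100 bp, the shares fell to 55.3% and 38.9%, a stricter criterion by construction. Under it 5 pairs were called higher in place of 6, and 1 pair was called lower in place of 2. Against the median of the same kind of site, an alternative added after the data were examined, 1 pair was lower as well. The share of summits with the core GGAA was 94.7% and 98.1%, and with CCGGAAGT alone it was 0% and 1.85%. With 1 TSS per gene, 6 members had a promoter peak in each list, as *ETS1* has none at its MANE TSS, and with a promoter of 1 kb the IFN-γ count was 6.

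Summits of 7 to 15 fragments, common at these genes, gave wide intervals, and the spread between cultures was not measured. Copy number of the loci in HK1 cells and the mappability of the GGAA repeats were not tested.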

Other observations

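The AP-1 heptamer TGANTCA was present at 9 of 38 control summits (23.7%, 11.4% to 40.2%) and 13 of 54 IFN-γ summits (24.1%, 13.5% to 37.6%) at the 10 genes. Over all summits the shares were 17.7% and 22.1%, and away from promoters they were 27.7% and 29.6%. Among the 25 IFN-γ peaks without a control counterpart, the heptamers lay at *ERG* (introns 1 and 2), *ETS1* (both in intron 3), *ETS2* (upstream) and *FEV* (downstream), and each was spelled TGACTCA.

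Of the peaks within 50 kb of the 10 genes but outside their own promoters, 3 in each list lay at promoters of other coding genes. These were *CDK5R2*, *CRYBA2* and *DHX8* in the control list and *CRYBA2*, *DHX8* and *BNIP5* in the IFN-γ list. Coding exons were overlapped by 3 peaks in each list.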
